A study of Mus musculus with 8 samples.

Results

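The natural killer (NK) cells described here are the 1515 cells that carry the label NK cell in the deposited annotation, out of 22441 CD45+ immune cells from beta cell grafts. They were taken by that label alone, with no filter on any gene, and they made up 1 of the 29 deposited clusters. The grafts were NIT-1 cells, an insulin-producing tumor line from NOD mice, either wild type (WT) or mutant in Rnls (Rnls mut), placed under the skin of immunodeficient NOD.scid mice on opposite flanks. All animals received autoreactive splenocytes from recently diabetic NOD mice, and live CD45+ cells were sorted from grafts at day 10 or day 17 after that transfer. Each genotype and day had 4 grafts, 16 in all, marked by hashtag antibodies and pooled into 1 single-cell RNA library per genotype and day. There was no group without transferred splenocytes.

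NK cells are innate lymphocytes that kill target cells by releasing perforin and granzymes and that secrete interferon gamma and chemokines. Their activity is set by the balance between activating receptors, such as NKp46 (encoded by Ncr1), and inhibitory receptors, such as the Ly49 family of the mouse, which bind MHC class I. The transcription factor Eomes separates circulating, cytolytic NK cells from group 1 innate lymphoid cells of tissues (ILC1), their near relatives. In islet autoimmunity NK cells infiltrate the pancreas together with T cells.

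The gene mutated in the grafts acts in the NIT-1 cells and not in the sorted immune cells, so its level in NK cells is no check of the labels. NOD.scid hosts lack T and B cells but have NK cells of their own, and the transferred spleen cells also hold NK cells, so host and donor NK cells cannot be told apart. Every library is 1 genotype at 1 day, so that library and group cannot be told apart either, and the p-values below measure the spread between grafts. Since each mouse carried a WT and a Rnls mut graft, grafts of a day shared animals. The labels do not tie hashtags to mice, and p-values over grafts treat the grafts as independent and may be too small.

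The grafts gave 13 to 261 NK cells each, 1208 cells at day 10 and 307 at day 17, with 67046 to 710194 unique molecular identifiers (UMIs, counted transcripts) per graft. The median NK cell held 2411 UMIs. In the WT day 17 grafts the median per graft ran from 3443 to 5085 UMIs, against 1939 to 2766.5 in the other groups. Of the barcodes, 42 occurred in more than 1 library and 4 of those NK cells carried such a barcode.

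As a share of CD45+ cells, NK cells ranged from 1.71% to 22.6% over the grafts. In WT grafts the shares were 14.0%, 7.47%, 10.1% and 11.2% at day 10 and 4.69%, 22.6%, 2.25% and 3.68% at day 17. In Rnls mut grafts they were 7.57%, 3.50%, 3.55% and 8.75% at day 10 and 1.71%, 2.40%, 3.55% and 5.13% at day 17. The values at the 2 days overlapped, and 1 WT graft at day 17 stood far above its group. The share was lower at day 17 by 2.51 percentage points (−2.51, exact permutation test within genotype, two-sided p = 0.354, 4900 assignments), which was within the spread between grafts (exact permutation p = 0.343 over 70 assignments with the same-numbered WT and Rnls mut grafts of a day taken as 1 unit). Without WT day 17 graft 2 the difference was −4.89 points (p = 0.00571 by the same exact permutation test), and as a share of lymphoid cells it was 0.578 points (exact permutation p = 0.902). A share of sorted cells does not tell fewer NK cells from more of the other cells.

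**Figure D1:**
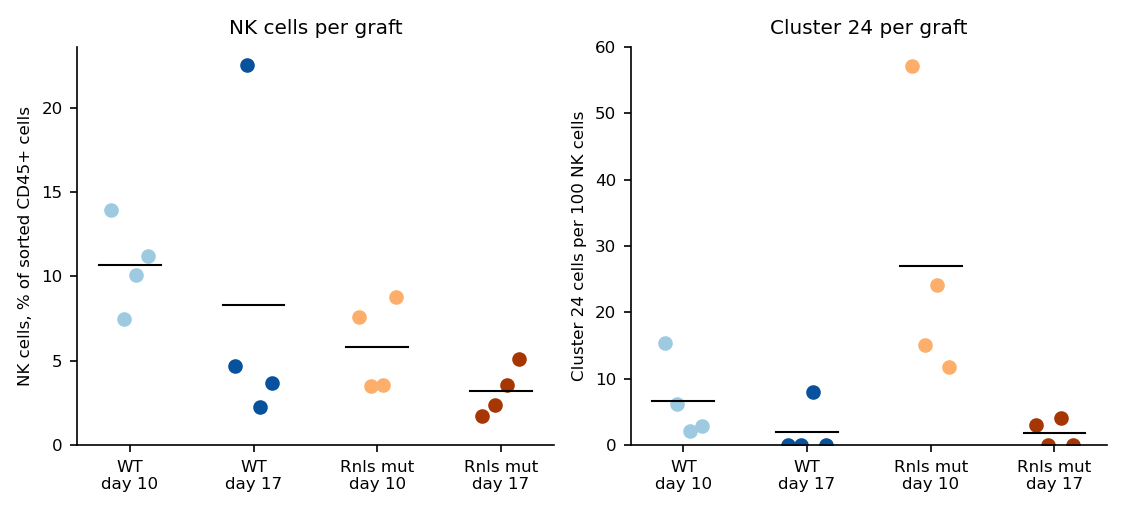
NK cells as a percentage of CD45+ cells (left) and cluster 24 cells per 100 NK cells (right), on the y axes, by genotype and day on the x axis; each point is 1 graft and the line is the mean of 4 grafts. The NK share overlaps between the days, with WT day 17 graft 2 at 22.6%, while the number of cluster 24 cells per 100 NK cells averages 6.60 and 27.0 at day 10 and 2.00 and 1.78 at day 17 in WT and Rnls mut grafts.

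The labelled NK cells carried Ncr1 and Eomes, while Cd3e, Cd4, Cd8a and insulin genes were near 0 and other T cell genes were present unevenly. Levels are given as counts per 1000000 UMIs (CPM), pooled over all cells of a type, and are a description, since the same genes shaped the clusters. Ncr1 (chr7:4337724-4345164, + strand, GRCm38) stood at 444 CPM in NK cells, 671 CPM in cells labelled ILC-1, 1.6 CPM in CD8 T cells and 0.5 CPM in CD4 T cells. Eomes (chr9:118478212-118486132, + strand, GRCm38) stood at 422 CPM in NK cells, 51.5 CPM in ILC-1, 60.0 CPM in CD8 T cells and 12.6 CPM in CD4 T cells. Both markers were thus high in NK cells, but only Eomes was lower in ILC-1.

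Thinned to 1000 UMIs per cell, which left out no cell, 32.7% of NK cells held a UMI of Ncr1 (57.2% without thinning), against 47.4% of ILC-1 cells (79.6%) and 0.1% of CD8 T cells (0.3%). For Eomes the thinned shares were 33.5% of NK cells, 2.9% of ILC-1 cells and 5.7% of CD8 T cells. Cd3e, a subunit of the T cell receptor complex, had a UMI in 0.4% of thinned NK cells and in 62.8% of thinned CD8 T cells. The CD8 T cell share for Ncr1 and the NK cell share for Cd3e serve as the background for cells that should lack each gene, at a similar depth, with a median of 2555 UMIs in CD8 T cells.

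The genes that stood highest in NK cells against all other cells, among genes seen in at least 20% of NK cells, were led by 2 receptor genes. Klra4, a Ly49 receptor, was 128-fold higher at 1217 CPM, and Klri2, an NK receptor of the lectin family, was 94.5-fold higher at 831 CPM. Klra1 followed at 69.8-fold, Itga2 (CD49b, the integrin used to stain mouse NK cells) at 61.0-fold, Spry2 at 54.8-fold, Adamts14 at 48.4-fold and Trdc at 43.4-fold. Klrb1c (the NK1.1 gene) was 41.5-fold higher, Klra7 40.6-fold and Xcl1 (a chemokine for cross-presenting dendritic cells) 40.1-fold. The summed level of 10 Ly49 genes was 3862 CPM in NK cells, 548 CPM in ILC-1 and 53.4 CPM in CD8 T cells. Ly49 genes are near-identical copies whose set in NOD mice differs from that of the reference strain, so the split between single Ly49 genes is uncertain.

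**Figure D2:**
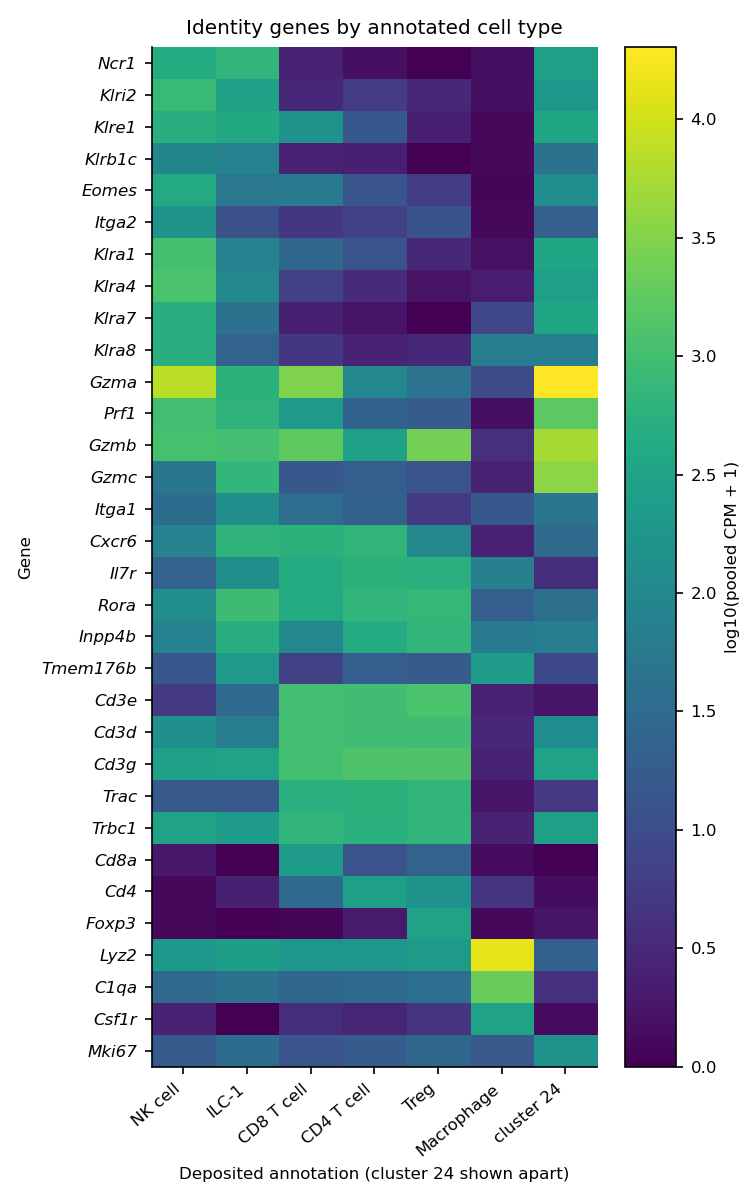
Heat map of identity genes (y axis) by deposited annotation (x axis), with cluster 24 shown apart; the color gives the pooled level of each cell type as log10(CPM + 1). Ncr1 is bright in NK cells (444 CPM) and ILC-1 (671 CPM), Eomes and the 4 Ly49 genes drawn are highest in NK cells, and Cd3e is dark in NK cells (4.3 CPM) against CD8 T cells (1038 CPM).

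Against ILC-1 the NK cells differed in Eomes, in most Ly49 genes and in several residency genes. This comparison could be made graft by graft in the 8 grafts with at least 10 ILC-1 cells (221 ILC-1 cells in the whole series). Eomes was higher in NK cells in 8 of 8 grafts, with medians of 384 CPM in NK cells and 30.6 CPM in ILC-1. Klri2, Itga2, Itgam (CD11b, which rises as NK cells mature), Gzma and 8 Ly49 genes were also higher in NK cells in 8 of 8 grafts. Cxcr6 and Itga1 (CD49a), which keep lymphocytes in tissue, were lower in NK cells in 8 of 8 grafts, as were the ILC transcription factors Rora and Id2, the phosphatase gene Inpp4b, Tmem176b, Trbc2 and Gzmc. Ncr1 was lower in NK cells than in ILC-1 in 7 of 8 grafts, and Gzmb and Klra5 were higher in 4 and lower in 4.

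The pooled levels behind these orders were wide apart. Gzma, which encodes granzyme A, stood at 7263 CPM in NK cells, 576 CPM in ILC-1, 2968 CPM in CD8 T cells and 99.7 CPM in CD4 T cells. Prf1, which encodes perforin, stood at 988, 625, 211 and 21.0 CPM in the same order of cell types. Gzmb was higher in CD8 T cells (1715 CPM) than in NK cells (1131 CPM), and Nkg7, a cytotoxic granule protein, was about level between NK cells (1234 CPM), ILC-1 (1169 CPM) and CD8 T cells (1276 CPM). Cxcr6 stood at 79.9 CPM in NK cells and 628 CPM in ILC-1, and Rora at 135 and 883 CPM. Il7r, the interleukin 7 receptor of naive and memory T cells and most ILC, stood at 21.8 CPM in NK cells, 133 CPM in ILC-1 and 448 CPM in CD8 T cells.

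T cell genes were present in NK cells unevenly. Cd3e stood at 4.3 CPM in NK cells against 1038 CPM in CD8 T cells, and Cd8a at 1.0 CPM, Cd4 at 0.2 CPM and Foxp3 at 0.2 CPM in NK cells. Cd3g, by contrast, stood at 291 CPM and Cd3d at 146 CPM in NK cells. Trbc1, a constant segment of the T cell receptor beta chain, stood at 303 CPM. Single CD3 chains and unrearranged T cell receptor transcripts are known in NK cells. Ins1 had no UMI in NK cells and Ins2 stood at 0.2 CPM, so insulin transcripts of the graft were almost absent.

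The deposited annotation placed a further group of NK-like cells under another name. Cluster 24, 177 of the 830 cells labelled Stem-Progenitor, had a UMI of Ncr1 in 87.6%, of Klre1 in 94.9% and of Klri2 in 72.3% of cells, at a median of 12676 UMIs per cell. Thinned to 1000 UMIs per cell, these shares were 23.4%, 29.5% and 19.1%, below the 32.7%, 38.1% and 48.4% of thinned NK cells. The Ly49 sum (1284 CPM) and Itga2 (20.2 CPM) were also below those of NK cells (3862 and 165 CPM). Its leading genes over all other cells were the granzyme genes Gzme, Gzmd, Gzmg, Gzmf and Gzmc, at 2253, 3430, 1377, 966 and 3662 CPM. Gzma stood at 20232 CPM, Gzmb at 5328 CPM and Eomes at 127 CPM in this cluster, and Cd3e at 0.8 CPM. Mki67, a marker of cycling cells, had a UMI in 48.6% of its cells (10.7% when thinned to 1000 UMIs) against 2.9% of NK cells (1.0% when thinned). These cells are not counted as NK cells here, and the cluster was singled out after its values were seen, so its numbers are given without a test.

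Most cluster 24 cells came from day 10. Of NK and cluster 24 cells together, cluster 24 made up 6.79% in WT day 10 (59 cells, exact binomial 95% interval 5.21% to 8.67%), 22.1% in Rnls mut day 10 (113 cells, 18.6% to 26.0%), 1.25% in WT day 17 (2 cells, 0.152% to 4.44%) and 1.97% in Rnls mut day 17 (3 cells, 0.409% to 5.66%). These intervals cover counting error only. Graft 1 of each group gave 40 of the 59 cells of WT day 10 and 72 of the 113 of Rnls mut day 10, and without it the shares were 3.35% (19 of 568 cells) and 13.1% (41 of 313 cells). Whether a cell is labelled NK or Stem-Progenitor therefore bears on granzyme levels by day.

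The main comparison asked what changed in NK cells from day 10 to day 17, over both genotypes. UMIs of NK cells were summed per graft, and 3263 genes that passed the filter on low counts were tested with edgeR's quasi-likelihood test, calling genes at a Benjamini-Hochberg adjusted p of at most 0.05. At day 17, 207 genes were higher (6.34% of those tested) and 214 were lower (6.56%). Counts of called members of the gene lists below are to be read against these shares. Those that rose with the smallest p included Wfdc17, Apoe, Dennd4a, Inpp5d and Btg2, and those that fell included Hsph1, Hsp90aa1, Hspd1, Dnaja1 and Hsp90ab1. The median log2 change over all tested genes was 0.02.

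Of the genes that rose, 205 of 207 had the same sign in both genotypes, and of those that fell, 213 of 214 did. The genes were called on the mean of both genotypes, so much of this agreement follows from how they were picked. In the same fit of all grafts, the day change of WT was called for 137 genes higher and 159 lower, and that of Rnls mut for 48 higher and 39 lower. The 8 grafts of day 10 and the 8 of day 17 did not overlap at all for 32 genes that were higher (0.981% of those tested) and 34 that were lower (1.04%) at day 17. When samples were scaled by library size only, 66.9% of called genes were higher, against 49.2% with the TMM scaling used here, with a shift of the median from 0.02 to 0.10. With a single sum per library 63 genes were higher and 101 lower, and with the sums thinned to the lowest total, which left 1612 genes to test, 92 were higher and 99 lower. With cluster 24 added to the NK cells 669 were higher and 710 lower. With same-numbered WT and Rnls mut grafts of a day summed, 178 of 5188 tested genes were higher and 206 lower.

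Macrophage transcripts in NK cells moved with day. The share of NK cells with at least 2 UMIs of C1qa, C1qb, C1qc, Lyz2 and Apoe together averaged 12.6% in WT day 10, 33.5% in WT day 17, 5.02% in Rnls mut day 10 and 63.7% in Rnls mut day 17, a day difference of 39.8 points (exact permutation test within genotype, two-sided p = 0.000408, the smallest that 4900 assignments can give). With same-numbered grafts of a day taken as 1 unit the exact permutation p was 0.0286, the smallest that 70 assignments can give. Thinned to 1000 UMIs per cell, since WT day 17 cells were deeper, the shares averaged 3.86%, 7.60%, 0.975% and 30.0% in the same order (day difference 16.4 points, exact permutation p = 0.00163 over grafts and 0.0286 by number), and the WT days then overlapped. The 20 genes of the macrophage and monocyte list summed to 765 to 980 CPM in NK cells of WT day 10, 839 to 1768 CPM in WT day 17, 581 to 674 CPM in Rnls mut day 10 and 2146 to 2602 CPM in Rnls mut day 17. CD8 T cells had medians of 956, 1108, 628 and 2822 CPM in the same order of groups, against 906, 1042, 624 and 2271 CPM in NK cells. In Rnls mut day 17 the CD8 T cell values (2623 to 3171 CPM) lay above all those of NK cells. In macrophages themselves the list summed to 36866 CPM. Without the NK cells that carried such transcripts, which left 14 grafts, 108 genes were higher and 199 lower.

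Among the genes that rose, the chemokine genes Ccl3 and Ccl4, which draw in T cells and monocytes, were well measured. Ccl4 stood at 787, 1445, 700 and 934 CPM in WT grafts and 1017, 645, 1141 and 727 CPM in Rnls mut grafts at day 10. At day 17 it stood at 2525, 2166, 4455 and 1896 CPM in WT grafts and 2266, 2078, 2143 and 4788 CPM in Rnls mut grafts. Every day 17 graft lay above every day 10 graft. The fitted log2 change of Ccl4 was 1.54 ± 0.21 (SE, n = 8 grafts a day, edgeR adjusted p = 1.18e-05), and that of Ccl3 was 1.03 ± 0.27 (adjusted p = 0.0109). Ccl4 also rose in CD8 T cells (1.75) and fell in macrophages (−1.46). Ccl5 (0.27), Xcl1 (−0.13) and Ifng (0.13) were not called, and Tnf was too low to test, with 33 UMIs at day 10 and 6 at day 17. Over the 9 tested genes of the cytokine and chemokine list, 2 rose and 1 fell, with a median of 0.13, Ltb, a lymphotoxin gene, being the member that fell (−1.02).

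Immediate early genes, which cells switch on within minutes of a receptor signal or of handling, moved mostly upward. Of 22 tested members 11 rose and 3 fell, with a median log2 change of 0.58 against 0.02 over all genes. The members that rose were Fos (1.74), Fosb (1.47), Egr1 (1.54), Junb (0.64), Nr4a1 (1.49), Nr4a2 (0.85), Nr4a3 (0.93), Dusp1 (0.99), Zfp36 (0.94), Btg2 (1.15) and Tnfaip3 (0.71), and those that fell were Ier3 (−1.41) and the heat shock genes Hspa1a and Hspa1b. Nr4a1, an orphan nuclear receptor induced by antigen and activating receptors, stood at 118 to 400 CPM at day 10 and 221 to 934 CPM at day 17. Nr4a3 stood at 224 to 355 CPM (median 327) at day 10 and 470 to 767 CPM (median 675) at day 17, so the days did not overlap. Btg2, a brake on proliferation, stood at 352 to 659 CPM at day 10 and 898 to 1760 CPM at day 17. Nr4a1 also rose in CD8 T cells (1.17) and CD4 T cells (1.37), as did Btg2 (0.96 and 1.06).

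Ncr1, the activating receptor that marks these cells, rose as well. It stood at 345, 382, 384 and 413 CPM in WT and 301, 368, 333 and 365 CPM in Rnls mut grafts at day 10. At day 17 it stood at 925, 853, 349 and 839 CPM in WT and 436, 587, 525 and 776 CPM in Rnls mut grafts. All day 17 grafts but WT graft 3 lay above all day 10 grafts. The log2 change of Ncr1 was 0.79 ± 0.15 (edgeR adjusted p = 0.000996, n = 8 a day). Eomes, at 261 to 567 CPM at day 10 and 235 to 463 CPM at day 17, was not called over both genotypes (−0.25 ± 0.13, adjusted p = 0.226). In WT grafts Eomes fell by 0.67 (log2, adjusted p = 0.0215) and in Rnls mut grafts it gave 0.17, while the difference between the genotypes was not called (adjusted p = 0.268). Of these 2 NK markers, Ncr1 was thus called by day over both genotypes and Eomes was not, and the difference between them was not tested.

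Of 14 tested activating receptors and adaptors 4 rose and none fell (median 0.19), against 6.34% higher and 6.56% lower of all genes tested. Fcer1g, the adaptor that passes on NKp46 signals, rose by 0.55 ± 0.11 and stood at 686 to 976 CPM at day 10 and 1090 to 1670 CPM at day 17, without overlap. Cd247, the CD3 zeta adaptor, rose by 0.74 and the kinase gene Zap70 by 0.66, Ncr1 being the other member that rose. The call of Zap70 was lost in many of the fits without 1 graft. It was also lost without the NK cells that carried macrophage transcripts. Rasgrp1, which links receptors to Ras, is outside the list and rose by 1.36. Inpp5d, the SHIP1 phosphatase that restrains these pathways, rose by 1.39 ± 0.15 (edgeR adjusted p = 6.76e-07), from 90.7 to 148 CPM at day 10 to 207 to 487 CPM at day 17. Klrk1, the NKG2D gene, was not called (−0.09).

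Of 7 tested members of the list of inhibitory receptors 2 rose and none fell (median 0.09), Cd244a, a receptor of the SLAM family that can also activate, by 0.63 ± 0.18 (edgeR adjusted p = 0.0210), and Tox, a transcription factor listed with them, by 0.79. Both calls were lost without the NK cells that carried macrophage transcripts, and that of Cd244a also without Rnls mut day 17 graft 3. Klrd1, the CD94 gene, whose protein pairs with both inhibitory and activating partners, rose by 0.53 ± 0.12 (adjusted p = 0.00539). None of 7 tested Ly49 genes was called, although all 7 had a positive log2 change (median 0.22). Klra4 stood at 760 to 1368 CPM at day 10 and 893 to 2073 CPM at day 17 (0.09 ± 0.14, adjusted p = 0.722). Klra1 gave 0.22 ± 0.12 (adjusted p = 0.248).

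Over the 23 tested genes of the NK lineage list 6 rose and none fell, with a median of 0.05. The summed level of the list was 15063 to 20387 CPM at day 10 and 15499 to 28607 CPM at day 17 in Rnls mut grafts, and 16396 to 19786 CPM and 17586 to 24597 CPM in WT grafts. The members that rose were Ncr1, Klrd1, Cd244a, Il2rb (0.37), Fcer1g and Nkg7. Nkg7 stood at 1003, 930, 1281 and 1114 CPM in WT and 907, 1033, 1289 and 1311 CPM in Rnls mut grafts at day 10, and at 1638, 1679, 1383 and 1664 CPM and 1457, 1347, 1534 and 2729 CPM at day 17. The days did not overlap, and its log2 change was 0.53 ± 0.13 (edgeR adjusted p = 0.00784). The call of Il2rb was lost in many of the fits without 1 graft, and the calls of Fcer1g and Nkg7 were lost when cluster 24 was added.

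**Figure D3:**
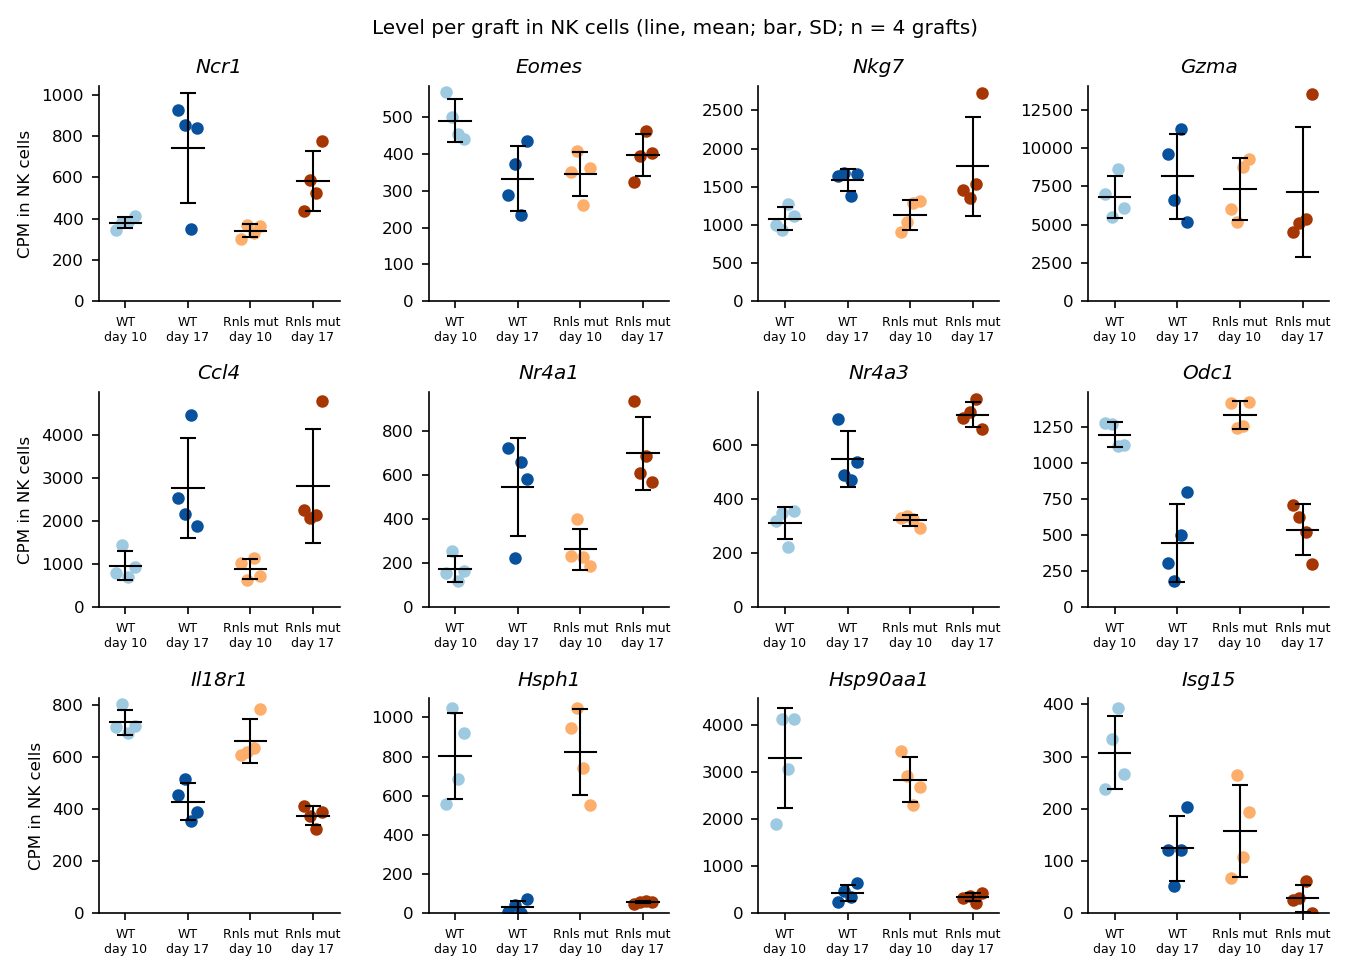
Level in NK cells (CPM, y axes) of 12 genes by genotype and day (x axis); each point is 1 graft, the line is the mean and the bar 1 SD of 4 grafts. Ccl4, Nr4a3 and Nkg7 are higher and Hsph1, Hsp90aa1, Il18r1 and Odc1 lower at day 17 with no overlap between the days, while Gzma overlaps.

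Genes of early, less mature NK cells were lower at day 17 where they were called. Of the 9 tested members of that list none rose and 2 fell, and all 9 had a negative log2 change (median −0.66). Ltb fell by 1.02 (log2) and Ccr7, a lymph node homing receptor, by 1.66. The call for Ccr7 was lost with DESeq2, with library size scaling and without the NK cells that carried macrophage transcripts. It was also lost in many of the fits without 1 graft. Both calls were lost with cluster 24 added (Ltb −0.63, edgeR adjusted p = 0.0697). Tcf7, a factor of early lymphoid cells, gave −0.76 ± 0.30 (edgeR adjusted p = 0.0966) and Kit −0.98 ± 0.57 (adjusted p = 0.282). Myb, a transcription factor of progenitors and dividing cells, is on no list and fell by 1.73 ± 0.19 (log2), from 167 to 363 CPM at day 10 to 59.7 to 99.6 CPM at day 17.

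Maturation genes did not move in 1 direction. Of 8 tested members 2 rose and 1 fell (median 0.11). Klf2, which controls exit from tissue, rose by 1.15 ± 0.26 (edgeR adjusted p = 0.00451), at 74.7 to 252 CPM at day 10 and 78.4 to 668 CPM at day 17. Zeb2, which drives late maturation, fell by 0.78 (log2), a call lost with DESeq2, with library size scaling, with cluster 24 added and in several fits without 1 graft. Klrg1 was not called (−0.00 ± 0.29). Itgb2, the CD18 integrin chain, rose by 0.94. Among 7 tested ILC1 and residency genes 2 rose and 1 fell, with a median of −0.19. Itga1 rose by 1.47 ± 0.34 (adjusted p = 0.00476), from 10.4 to 47.5 CPM at day 10 to 0 to 104 CPM at day 17, Inpp4b rose by 0.61, a call lost with DESeq2 and in most fits without 1 graft, and Gpr183 fell by 1.71 (log2). Rora was not called (−0.19), and Cd69, an activation and retention marker, rose by 1.06.

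Cytotoxic granule genes were mostly not called by day, as were most of all genes tested. Of 15 tested members 2 rose (Nkg7 and Ctsw, a cathepsin) and 1 fell (Gzmc), with a median of 0.05. Over all genes tested 6.34% rose and 6.56% fell. Gzma stood at 7028, 5519, 8647 and 6108 CPM in WT and 6035, 5176, 8775 and 9299 CPM in Rnls mut grafts at day 10, and at 9637, 6593, 11226 and 5196 CPM and 4519, 5138, 5370 and 13528 CPM at day 17. The days overlapped, with a log2 change of 0.06 ± 0.20 (edgeR adjusted p = 0.887), and Gzmb gave 0.48 ± 0.33 (adjusted p = 0.375). Gzmc, a granzyme of strongly activated cells, fell by 1.90 ± 0.55 (log2, adjusted p = 0.0230), from a median of 66.6 CPM to 13.5 CPM, a call that was lost without WT day 17 graft 2. With cluster 24 cells added to the NK cells, the median of Gzma was 13259 CPM at day 10 and 6560 CPM at day 17, that of Gzmb 2999 and 1027 CPM, and that of Gzmc 1905 and 19.8 CPM. The log2 changes with the cluster added were −0.81 for Gzma, −1.03 for Gzmb and −3.80 for Gzmc, so the granzyme result turned on which cells were counted.

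Cytokine receptors were led by Il18r1, the receptor chain through which interleukin 18 arms NK cells. Il18r1 stood at 717, 803, 693 and 719 CPM in WT and 609, 620, 636 and 786 CPM in Rnls mut grafts at day 10, and at 456, 515, 356 and 391 CPM and 411, 375, 325 and 388 CPM at day 17. Every day 17 graft lay below every day 10 graft. It fell by 0.85 ± 0.11 (log2, edgeR adjusted p = 6.46e-06), while Il18rap, the other chain of the receptor, was not called (−0.09). With cluster 24 added, Il18r1 gave −0.26 and was not called. Of 14 tested cytokine receptors 2 rose, Il2rb and Il12rb2 (0.46), and 1 fell (median 0.13).

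Heat shock genes, which encode chaperones that refold proteins, were among the largest falls. Hsph1, a co-chaperone of the HSP70 family, stood at 559, 1046, 685 and 919 CPM in WT and 947, 1045, 743 and 553 CPM in Rnls mut grafts at day 10. At day 17 it stood at 6.4, 41.5, 0 and 72.4 CPM in WT and 49.8, 57.7, 62.2 and 59.7 CPM in Rnls mut grafts. The days were far apart in both genotypes, and the log2 change was −4.40 ± 0.27 (edgeR adjusted p = 2.5e-11). Hsp90aa1, the inducible HSP90, stood at 1892 to 4120 CPM at day 10 and 228 to 651 CPM at day 17 (−3.12 ± 0.19, adjusted p = 2.5e-11). Hspd1 and Hspe1, the mitochondrial chaperonin pair, fell by 2.74 and 2.70 (log2), Dnaja1 by 1.99, Dnajb1 by 2.23, Hspa8 by 1.60 and Hsp90ab1 by 1.68. Hspb1 had 30.6 to 256 CPM at day 10 (328 UMIs) and no UMI at day 17, so no fold is given.

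Of 73 genes named as heat shock or DnaJ genes by symbol, a list set up after the values were seen, 32 were tested, of which 1 rose (Hspa14) and 15 fell, with a median of −0.41. Their summed level had a median of 24176 CPM in WT and 22488 CPM in Rnls mut grafts at day 10 and of 8580 and 7930 CPM at day 17. CD8 T cells gave medians of 19244 and 20057 CPM at day 10 and 8299 and 7659 CPM at day 17. The fall was thus present in other cells too. For Hsph1 the log2 change was −4.24 in CD8 T cells, −4.09 in CD4 T cells and −4.15 in macrophages. For Dnajb1 it was −1.29, −1.74 and −2.82 in the same order, against −2.23 in NK cells, and the difference from CD8 T cells was called for Dnajb1 (−0.94, edgeR adjusted p = 0.0222), Hspe1 (−0.58, adjusted p = 0.0389) and Hspa5 (0.48, adjusted p = 0.0307). Whether sorting, digestion or library runs at the 2 days played a part was not tested, since these cannot be told apart from day.

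**Figure D4:**
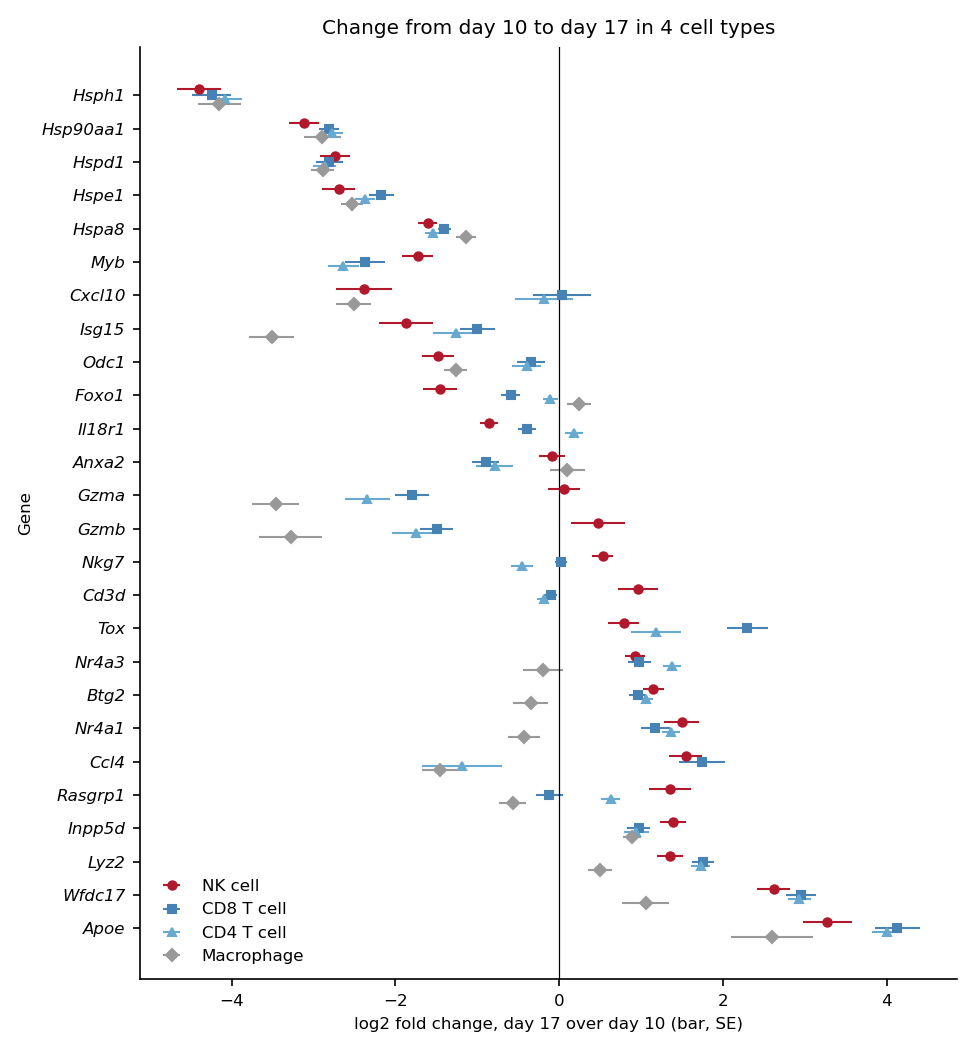
Log2 change from day 10 to day 17 (x axis) of named genes (y axis) in NK cells, CD8 T cells, CD4 T cells and macrophages, with bars of 1 SE and a point only where the gene was tested. Hsph1 lies between −4.40 and −4.09 in all 4 cell types, while Gzma is near 0.06 in NK cells and −1.80 in CD8 T cells.

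Promoter sequence is shown for heat shock and interferon-stimulated genes because members of each group fell together. The sequences are from RefSeq on GRCm38.p6, written 5′ to 3′ on the strand of the gene, and the capitals mark matches on either strand to GAANNTTC or TTCNNGAA, the paired units that heat shock factors bind, in the first 3, and to GAAANNGAAA or TTTCNNTTTC, the interferon response element, in the last 2. Hspe1 is read at chr1:55088053-55088082 (+), inside the annotated span of the neighbouring Hspd1 on the other strand, and Hsph1 at chr5:149636351-149636380 (−), across its annotated 5′ end. Hspa1a is read at chr17:34972157-34972406 (−) and Isg15 at chr4:156200819-156201068 (−), each directly upstream of the annotated gene. Gbp2 is read at chr3:142620594-142620623 (+), across the annotated 5′ end of the gene.
Hspe1: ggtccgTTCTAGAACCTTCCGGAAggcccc
Hsph1: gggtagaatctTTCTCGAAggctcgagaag
Hspa1a: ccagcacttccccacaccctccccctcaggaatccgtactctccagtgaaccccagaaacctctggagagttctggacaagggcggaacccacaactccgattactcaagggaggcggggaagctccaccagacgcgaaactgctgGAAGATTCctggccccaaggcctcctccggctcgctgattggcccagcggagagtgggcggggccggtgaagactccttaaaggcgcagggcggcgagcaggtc
Isg15: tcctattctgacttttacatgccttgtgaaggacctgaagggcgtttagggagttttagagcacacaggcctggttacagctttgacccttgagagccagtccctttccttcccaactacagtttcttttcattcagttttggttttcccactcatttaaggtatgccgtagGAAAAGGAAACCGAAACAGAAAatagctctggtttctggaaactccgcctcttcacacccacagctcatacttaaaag
Gbp2: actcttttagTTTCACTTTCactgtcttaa

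The 3 overlapping matches of Hspe1 lay 79 to 89 bases before the RefSeq start, that of Hsph1 33 bases and that of Hspa1a 104 bases before it. Over the 250 bases before the start, 14.5% of 27025 genes held GAANNTTC or TTCNNGAA, against 9 of the 12 heat shock and DnaJ genes that fell and had an entry and 10 of the 26 tested ones with an entry. The longer GAANNTTCNNGAA or TTCNNGAANNTTC occurred in 0.514% of all genes and in 3 of those 12. GAAANNGAAA or TTTCNNTTTC occurred in 3.46% of all genes. It occurred in 2 of the 4 interferon-stimulated genes that fell and had an entry, and in 4 of the 6 tested ones with an entry. Of those that fell, Isg15 had 3 overlapping matches 66 to 78 bases and Gbp2 1 match 59 bases before the start. Such a match is a stretch of letters and not a measured binding site.

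Interferon-stimulated genes were lower at day 17 where they were called. Of 11 tested members of a 41-gene list none rose and 5 fell, with a median of −0.44. Isg15, a ubiquitin-like modifier, stood at 238, 334, 392 and 267 CPM in WT and 67.6, 265, 107 and 193 CPM in Rnls mut grafts at day 10. At day 17 it stood at 122, 51.8, 121 and 203 CPM in WT and 24.9, 28.9, 62.2 and 0 CPM in Rnls mut grafts. The days overlapped over both genotypes, and the log2 change was −1.87 ± 0.33 (edgeR adjusted p = 0.000417). Irf7, which amplifies type I interferon, fell by 1.12 (log2), Oasl1 by 3.18, Ifi27l2a by 1.29 and the GTPase gene Gbp2 by 1.13. The calls of Irf7 and Ifi27l2a were lost with cluster 24 added. The summed list stood at 2270 to 3328 CPM at day 10 and 1516 to 2338 CPM at day 17 over both genotypes.

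Cxcl10, a chemokine induced by interferon that draws in T cells, stood at 142 to 511 CPM (median 292) at day 10 and 13.8 to 159 CPM (median 54.4) at day 17. It fell by 2.38 ± 0.35 (log2, edgeR adjusted p = 3.38e-05) and the days overlapped slightly. In CD8 T cells Cxcl10 was not called (0.03), and in macrophages it fell by 2.51 (log2, adjusted p = 2.07e-07). Ifih1, a sensor of viral RNA, fell by 2.60 ± 0.47 (log2, adjusted p = 0.000646).

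Metabolic and survival genes moved in small numbers. Odc1, the rate-limiting enzyme of polyamine synthesis, stood at 1276, 1266, 1115 and 1124 CPM in WT and 1410, 1239, 1254 and 1417 CPM in Rnls mut grafts at day 10. At day 17 it stood at 308, 180, 499 and 796 CPM in WT and 710, 625, 518 and 298 CPM in Rnls mut grafts, all below day 10. Odc1 fell by 1.48 ± 0.20 (log2, edgeR adjusted p = 1.18e-05). Of 13 tested glycolysis genes none rose and 1 fell (median 0.25), Hif1a, the hypoxia factor, by 0.91 (log2). Of 12 tested survival genes 3 rose, Bcl2 (0.79), Bcl2l1 (0.83) and Birc2 (0.97), and 1 fell, the killer gene Bcl2l11 (−0.43), with a median of 0.15. The calls of Bcl2l11 and Birc2 were lost in several fits without 1 graft and that of Bcl2l1 in most of them. All 3 rises, that of Bcl2 included, lost their call without the NK cells that carried macrophage transcripts. Bcl2l11 fell by 0.92 (log2, edgeR adjusted p = 0.00351) in WT grafts and gave 0.06 in Rnls mut grafts (adjusted p of the difference 0.185), and 0.09 over both with cluster 24 added. None of 7 cell cycle genes (median 0.31) and none of 15 MHC class I genes (median 0.12) was called.

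**Figure D5:**
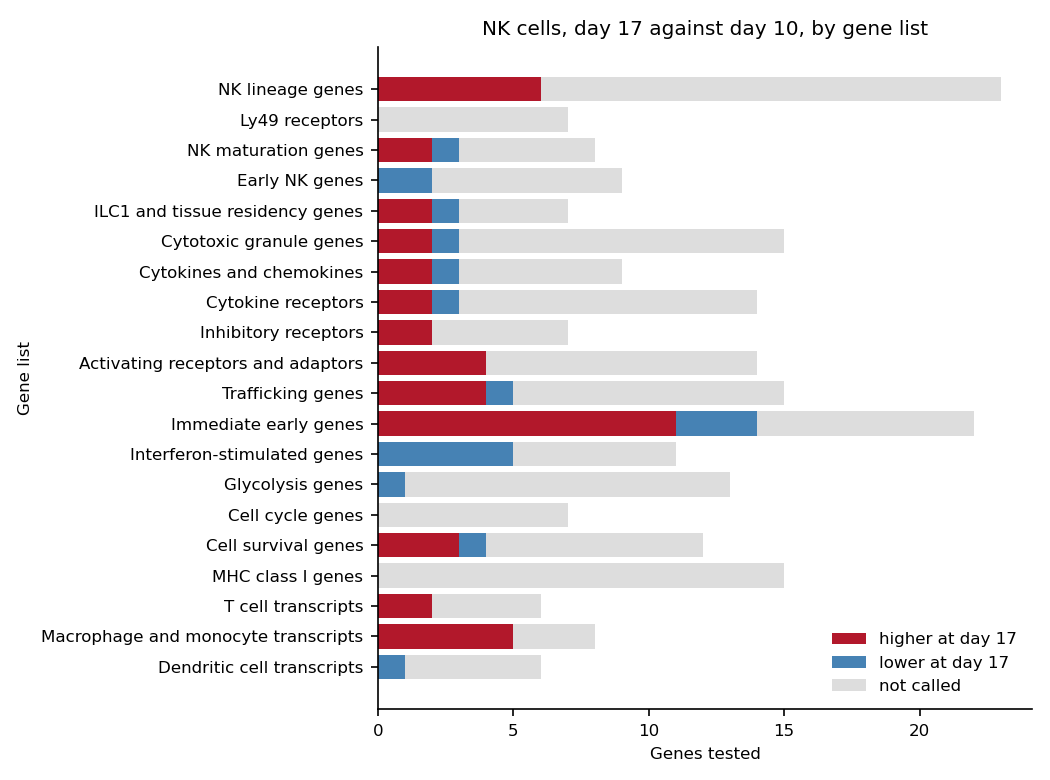
Number of tested genes (x axis) in each gene list (y axis) that were higher, lower or not called at day 17 against day 10 in NK cells, stacked in 1 bar per list. Immediate early genes have 11 of 22 members higher and interferon-stimulated genes 5 of 11 lower, against 6.34% and 6.56% of all 3263 genes tested.

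Trafficking genes were mixed, with 4 of 15 tested higher and 1 lower (median −0.07). They included Klf2, Itgb2, Selplg (the ligand of P-selectin, 0.48) and Ccr7, and Itga4 was not called (−0.43). Foxo1, a factor that keeps NK cells immature and homing, fell by 1.46 ± 0.21 (log2, edgeR adjusted p = 2.89e-05). Among the genes with the smallest p that are on no list, Aoah, an enzyme that inactivates bacterial lipid A, rose by 1.75, Homer1, a scaffold protein gene, by 1.61, Dennd4a by 0.99 and Zfp36l2, which destabilises messenger RNA, by 1.10. Aoah stood at 35.1 to 103 CPM at day 10 and 111 to 313 CPM at day 17. Cacybp fell by 1.75 (log2).

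Transcripts of other cells were described in the same way. Of 8 tested macrophage and monocyte transcripts 5 rose and none fell (median 1.36). They were Apoe, which rose by 3.27 ± 0.30 (edgeR adjusted p = 2.82e-08), Wfdc17 (2.62), Ccl8 (1.44), C1qa (1.36) and Lyz2 (1.35). In WT grafts Ccl8 gave −0.23, C1qa −0.19 and Lyz2 0.07, none of them called, against 3.11, 2.92 and 2.64 in Rnls mut grafts, so these rises came from Rnls mut grafts. Apoe, Wfdc17 and Lyz2 rose in CD8 T cells too, by 4.13, 2.95 and 1.76. Without NK cells carrying macrophage transcripts Lyz2 gave −0.01, and Apoe was too low to test. Of 6 tested T cell transcripts 2 rose, Cd3d (0.97) and Cd3g (0.70), both of which lost their call without those cells, and the summed level of the list in NK cells stayed between 1132 and 2302 CPM against 7449 to 9987 CPM in CD8 T cells. A share was also taken of NK cells with at least 2 UMIs of Cd3e, Cd3d, Cd3g, Trac, Trbc1 and Trbc2 together. Some of these transcripts are known in NK cells themselves, as stated above. Thinned to 1000 UMIs per cell, this share averaged 21.2% and 29.9% in WT and 21.5% and 29.4% in Rnls mut grafts at day 10 and day 17 (exact permutation p = 0.00939 over grafts, 0.0857 with same-numbered grafts as 1 unit). None of the granulocyte and beta cell transcripts passed the filter on low counts, and 1 B cell transcript passed and was not called (0.19). Of 6 dendritic cell transcripts 1 fell, Ccr7 again.

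To ask which of these changes differed from those of T cells in the same grafts, the day change in NK cells was set against that in CD8 T cells in 1 fit of 5632 genes. The change was higher in NK cells for 55 genes (0.977%) and lower for 90 (1.6%). Of the 207 genes that rose in NK cells the difference was called for 25, 21 of them with a larger rise in NK cells, and of the 214 that fell it was called for 26, 22 with a larger fall. The same NK sums enter both fits, so much of this shared direction follows from how the genes were picked. For most of the changed genes, then, no difference from CD8 T cells was shown, which does not say that the changes were equal. Without Rnls mut day 17 graft 3 the counts were 34 higher and 37 lower.

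Granzymes were among the largest differences. Gzma in CD8 T cells stood at 2670 to 4229 CPM (median 3371) at day 10 and 392 to 2397 CPM (median 891) at day 17, a log2 change of −1.80, while in NK cells it gave 0.06. The difference was 1.79 ± 0.22 (edgeR adjusted p = 1.79e-07). Gzmb gave −1.50 in CD8 T cells, with a difference of 1.76 ± 0.21 (adjusted p = 1.26e-07), and Anxa2, a membrane-binding annexin, a difference of 0.76 ± 0.12 (adjusted p = 8.16e-05). Rasgrp1, which rose in NK cells, gave a difference of 1.36 ± 0.28 (adjusted p = 0.00263). Ifitm2 gave a difference of 1.94 and Sept11, a septin gene, 1.16. The granzyme differences rest on the label, since cluster 24 is left out of both cell types.

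On the lower side stood genes that rose in T cells or fell more in NK cells. Maf, a transcription factor of differentiated T cells, stood at 20.8 to 60.2 CPM at day 10 and 107 to 444 CPM at day 17 in CD8 T cells, and at 23.8 to 74.4 CPM and 6.9 to 77.1 CPM in NK cells (difference −2.83 ± 0.35, edgeR adjusted p = 1.79e-07). Tox, which marks chronically stimulated T cells, rose in both, by 0.79 in NK cells and 2.30 in CD8 T cells (difference −1.45 ± 0.25, adjusted p = 0.000244). Odc1 fell more in NK cells (difference −1.21 ± 0.17, adjusted p = 7.16e-06), as did Cxcl10 (difference −2.28 ± 0.46, adjusted p = 0.00213) and Il18r1 (difference −0.46 ± 0.13, adjusted p = 0.0440). Ifit1 (−4.66) and St6galnac3 (−2.28) were also lower. For Hsph1 (−0.17), Nr4a1 (0.31), Ccl4 (−0.25) and Ncr1 (2.05 ± 0.99, near 0 in CD8 T cells) no difference was called.

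The day change itself was compared between genotypes by an interaction term. In 12 genes (0.368%) the change was higher and in 1 (0.0306%) lower in NK cells of Rnls mut than of WT grafts. They included Ccl8, a monocyte chemokine, Lyz2 and Apoe, which macrophages express, and H2-Aa, an MHC class II gene. Ccl8 stood at 62.0, 130, 133 and 126 CPM in WT day 10, 64.2, 107, 92.7 and 159 CPM in WT day 17, 55.1, 90.3, 65.3 and 58.8 CPM in Rnls mut day 10 and 573, 510, 581 and 641 CPM in Rnls mut day 17. The last group stood apart from the other 3, and the difference of the log2 changes was 3.34 ± 0.37 (edgeR adjusted p = 9.84e-06). Without NK cells carrying macrophage transcripts 2 genes were called, Ccl8 (3.87, adjusted p = 0.000189) and Rps29, a ribosomal protein gene (0.89, adjusted p = 0.0254). Those cells were picked by C1qa, C1qb, C1qc, Lyz2 and Apoe. Ccl8, itself on the macrophage and monocyte list, was not used to leave cells out. For the day change of Ccl8 over both genotypes no difference from CD8 T cells was called (−0.50, edgeR adjusted p = 0.220). The part of free macrophage RNA in the remaining cells was not tested.

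Over both days, no gene was called between NK cells of Rnls mut and WT grafts, by edgeR or by DESeq2. At an unadjusted p under 0.05 there were 123 genes, 56 higher and 67 lower in Rnls mut, of 3263 tested. At day 10 alone 1 gene, Lyz2, was lower, and at day 17 alone 6 were higher in Rnls mut, namely Apoe, Ccl8, Lyz2, Wfdc17, Rps29 and H2-Aa. Tgfb1, the immune-regulatory cytokine, stood at 214 to 479 CPM at day 10 and 263 to 452 CPM at day 17 and was not called by day (0.04 ± 0.14). Ifng stood at 113 to 351 CPM and 57.7 to 520 CPM, with no call by day (0.13 ± 0.30).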

How the data were processed

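Live CD45+ cells were sorted from grafts digested with collagenase D and DNase I, labelled with hashtag antibodies and run on the 10x Genomics droplet platform (Chromium Next GEM kit). The authors deposited whole-number UMI counts of 32285 genes in 22441 cells, not normalized, made with Cell Ranger on mm10 per the submitters' processing notes. They also deposited a cluster, cell type and hashtag for each cell. The settings of alignment, hashtag assignment, cell filters and annotation are not given in the sources used here. No cell held under 1001 UMIs. No doublet caller was run here, and the hashtag libraries themselves were not used.

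NK cells were the cells with the deposited type NK cell, and the graft was the replicate, from library and hashtag. Raw counts were summed per graft and cell type where a graft had at least 10 cells. Genes kept by filterByExpr were fitted with edgeR 4.0.16 (TMM, glmQLFit, glmQLFTest; limma 3.58.1, R 4.3.3) on genotype and day as 4 groups. Contrasts were day 17 minus day 10 averaged over the genotypes, the same within each genotype, the difference of the day changes, and genotype over both days. NK and CD8 T cells were fitted together for the difference of their day changes. Genes were called at a Benjamini-Hochberg adjusted p of 0.05 over all genes tested, and log2 changes carry standard errors. Shares of cells were compared by exact permutation of days within genotype (SciPy 1.17.1), and, chosen after seeing the data, with same-numbered grafts of a day as 1 unit and with cells thinned to 1000 UMIs. Intervals cover counting error only.

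The cell group and the gene lists were chosen with earlier results of these data known. Named genes were, by day, the 12 smallest p-values in each direction among called genes of equal sign in both genotypes, up to 4 called and 2 uncalled members of each list, and, per direction, up to 3 for genotype and 5 for the difference from CD8 T cells. Genes shown beyond these were chosen after their values were seen. On counts simulated for the day comparison, 77.7% of 193 genes changed by 0.8 (log2) and 200 of 200 changed by 1.5 were called, with 7 and 11 false calls. For the difference from CD8 T cells 47.0% of 198 genes changed by 1.5 were called, with 3 false calls. That simulation gave every gene the same spread and no graft effect shared by NK and CD8 T cells, so its rates may not hold for the data. DESeq2 1.42.0, library size scaling, no filter on low counts, a minimum of 20 cells, leaving out each graft, thinned sums, CD4 T cells and a replicate block were tried as alternatives.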

Additional observations from a re-analysis of the deposited data

Results flagged for a closer look

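Of 108 sets of 4 grafts examined for a graft far from the other 3, 9 stood out, where chance alone gives about 1 in 20. In WT grafts at day 17 these were the highest NK share (22.6% of CD45+ cells), the highest number of cluster 24 cells per 100 NK cells (8, from 2 cells, the other 3 grafts having none), the lowest Ncr1 level (349 CPM) and the lowest Nkg7 level (1383 CPM). In Rnls mut grafts at day 10 they were the highest Il18r1 level (786 CPM) and the highest Cxcl10 level (511 CPM). In Rnls mut grafts at day 17 they were the highest levels of Ccl4 (4788 CPM), Gzma (13528 CPM) and Nkg7 (2729 CPM), all in graft 4.

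The change from day 10 to day 17 differed between the genotypes in 13 genes by the interaction term of the edgeR fit. It was larger in NK cells of Rnls mut than of WT grafts for Ccl8 (difference of log2 changes 3.34), C1qa (3.11), Apoe (2.99), H2-Aa (2.57), Lyz2 (2.56), H2-Ab1 (2.38), Wfdc17 (2.20), Cd74 (1.96), Gm10076 (1.66), Ccnd2 (1.57), mt-Nd4l (1.42) and Rps29 (0.86), and smaller for Gm8797 (−1.51). C1qa, Apoe, Lyz2, Ccl8 and Wfdc17 are on the list of macrophage and monocyte transcripts, and H2-Aa, H2-Ab1 and Cd74 belong to MHC class II, which macrophages and dendritic cells express. The share of NK cells with at least 2 UMIs of C1qa, C1qb, C1qc, Lyz2 and Apoe together averaged 63.7% in Rnls mut day 17 grafts against 5.02% to 33.5% in the other groups.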

How the results depend on the processing

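The 207 higher and 214 lower genes by day became 133 and 418 of 15577 without a filter on low counts, 63 and 101 with 1 sum per library, 65 and 110 in WT grafts only, 72 and 55 in Rnls mut grafts only, and 92 and 99 with sums thinned to the lowest total. With settings chosen after seeing the data, they became 108 and 199 without NK cells with macrophage transcripts and 669 and 710 with cluster 24 added. Differences in day change between genotypes (12 higher, 1 lower) gave 4 lower with DESeq2, 6 lower by library size, 19 higher and 14 lower without the filter, 3 lower at a minimum of 20 cells, and 2 higher and 0 lower without NK cells with macrophage transcripts. The genotype comparison gave 1 lower gene without the filter. The difference from CD8 T cells (55 higher, 90 lower) gave 44 lower with DESeq2, 52 lower at a minimum of 20 cells, and 145 and 253 against CD4 T cells. The NK share by day turned from −2.51 to 0.578 points with lymphoid cells as denominator. Fewer samples or genes account for part of these counts by construction, and otherwise the cause was not tested.

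Leaving out 1 graft at a time gave 167 to 218 higher and 185 to 274 lower genes by day, 8 to 15 higher and 0 to 4 lower between the genotypes' day changes, 0 and 0 for genotype, 34 to 70 higher and 37 to 74 lower against CD8 T cells, and −4.89 to −1.51 points for the share. The lower count against CD8 T cells moved by over 1.5 times without Rnls mut day 10 graft 4 (58), Rnls mut day 17 grafts 2 (53) and 3 (37), WT day 10 grafts 3 (50) and 4 (52) and WT day 17 graft 1 (56), and the higher count without Rnls mut day 17 graft 3 (34). The share passed the threshold without WT day 17 graft 2.

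Of 67 named genes called by day, DESeq2 lost 4 (Birc2, Ccr7, Inpp4b and Zeb2), library size scaling 3 and the fits without 1 graft 3 to 9, and 34 of 47 uncalled named genes changed sign somewhere. Without 1 graft or another Il2rb, Inpp4b, Zap70, Bcl2l1, Bcl2l11, Birc2, Il12rb2, Ccr7, Zeb2 and Cd3g lost their call, Cd3d and Cd244a did without Rnls mut day 17 graft 3 and Gzmc without WT day 17 graft 2. Lyz2 turned to −0.00986 without NK cells with macrophage transcripts, where 15 further calls were lost. These were Bcl2, Bcl2l1, Birc2, Ccr7, Cd244a, Cd3d, Cd3g, Gzmc, Il12rb2, Il2rb, Inpp4b, Selplg, Tox, Zap70 and Zeb2. With cluster 24 added 8 calls were lost. Among named genes called with or without the cluster, the sign turned for Xcl1 (0.41), Bcl2l11 (0.0922), Spp1 (−2.56), Gzma (−0.81), Gzmb (−1.03), Ly6a (−0.78) and Tubb5 (−0.66). Eomes, not called in either fit, also turned (0.13). NK cells without T cell or macrophage transcripts were left in 10 grafts, none of them Rnls mut day 17, so that setting could not be fitted.

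WT and Rnls mut grafts of a day shared mice and hashtag numbers, but no label ties a number to a mouse, and same-numbered grafts correlated at −0.0552 to 0.166. With the replicate block the genotype comparison again gave 0 and 0.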

Other observations

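Cytosolic ribosomal protein genes formed a group not described above, put together by symbol after the values were seen. Of 83 such genes 80 were tested in NK cells, 30 fell from day 10 to day 17 and none rose, and 79 of 80 had a negative log2 change (median −0.27, lowest −0.78). Their summed level in NK cells had a median of 211327 CPM at day 10 and 170602 CPM at day 17 in WT grafts, and of 211912 and 200489 CPM in Rnls mut grafts. No difference from CD8 T cells in the day change was called for any of them by edgeR. The median number of genes detected per NK cell averaged 1096.5 at day 10 and 1760.25 at day 17 in WT grafts, and 1225.12 and 1220.62 in Rnls mut grafts. Depth moved alike, the median UMIs per NK cell averaging 2185.75 and 4108.5 in WT and 2544.38 and 2359 in Rnls mut grafts. In CD8 T cells of WT grafts the median ran from 2357 to 2465 UMIs at day 10 and 3781 to 5276 UMIs at day 17. The number of genes was not compared at 1 depth per cell.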
